A study of Sus scrofa with 9 samples.

Results

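Epiblast and pluripotency genes of pig blastocysts are described here across 9 RNA-seq libraries: POU5F1, SOX2, TDGF1, LIN28A, LIN28B, SALL4, KLF4, ESRRB, GDF3 and OTX2. A gene was followed through the loci that carry its name in the deposited locus table and through its assembled transcripts that match, extend or are contained in a known transcript of the gene. Of the 10 genes, 9 were matched to loci. OTX2, a homeobox factor of later epiblast stages, had no locus of that name and is not analysed here. The 9 genes were carried by 26 of 88800 loci. In 9 of these loci, 1 for each gene, a transcript matched or shared splice sites with the known gene on its own strand, and such loci are called annotated below (17065 in the whole table). These 9 loci held 24 of the 147461 assembled transcripts as forms of the named gene.

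In the early mammalian embryo, the inner cell mass gives rise to the epiblast, the founder of the body, while the outer trophectoderm forms placental tissue. POU5F1 and SOX2 are transcription factors that bind together at enhancers of pluripotency genes, and SALL4, KLF4 and ESRRB are transcription factors of the same network. TDGF1 is a membrane-bound co-receptor for the growth factors NODAL and GDF3, and LIN28A and LIN28B are RNA-binding proteins that block maturation of the let-7 microRNAs.

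The study asked what the chromatin remodeler INO80 does at the transition from morula to blastocyst, using injection of small interfering RNA (siRNA) into pig embryos. Both deposited tables held 3 FPKM columns headed INO80 siRNA, 3 headed as a water sham injection and 3 headed as uninjected. FPKM is the number of sequenced fragments per kilobase of transcript, scaled to the size of the library. The tissue of all samples is given as porcine blastocyst, with total RNA as the starting material. Embryo age, pool size and mode of production are not stated in the labels used here. The headings and the sample labels disagree for the injected groups. Samples titled as a water sham carry INO80 siRNA as their siRNA characteristic, other samples are labelled as control siRNA, and no column is headed as control siRNA. The groups are therefore called by their column headings, and from the labels alone it cannot be told whether the sham columns hold embryos injected with water, control siRNA or INO80 siRNA. The INO80 siRNA columns match no sample title, so what their embryos received is known from the heading only. The labels do not say that the 3 libraries of a group came from separate pools of embryos, so p-values measure only the spread between these libraries, which may be technical.

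INO80 itself, the targeted gene, did not separate the groups. Its locus had 0.331, 1.37 and 2.18 FPKM in the INO80 siRNA columns, 1.72, 0.716 and 1.90 FPKM in the sham columns, and 0.737, 1.09 and 1.92 FPKM in the uninjected columns. The ranges overlapped in each comparison, and the log2 fold change of the INO80 siRNA columns was -0.14 against sham and -0.03 against uninjected (SE 0.516 each; limma, adjusted p = 0.913 and 0.998). The 95% intervals were -1.27 to 0.98 against sham and -1.15 to 1.10 against uninjected, and hold sizeable differences in either direction. The scale used also understates the change of genes this low. A lower INO80 level was thus not seen in the libraries labelled INO80 siRNA. With intervals this wide, whether INO80 was lowered cannot be told from these values. Every direction given below is between columns so labelled.

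The libraries differed in how much of their signal (transcript FPKM times length) fell in annotated transcripts. That share was 50.3% to 71.6% in the INO80 siRNA columns, 65.6% to 86.1% in the sham columns and 61.0% to 74.6% in the uninjected columns. Across the 67107 loci tested, the median log2 fold change of INO80 siRNA against sham was 0.57, whereas across the 9311 annotated loci it was -0.34. Against uninjected these medians were 0.21 and -0.20, and for sham against uninjected they were -0.27 and 0.16. Levels are given as deposited. For the pluripotency genes, where it bears on the overlap of groups, they are also given after scaling every library to the same annotated signal. Scaled levels of other genes are not given, so their overlap is as deposited only. The part of this shift in the values below was not tested.

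None of the pluripotency genes passed the test in any comparison. In the comparison of INO80 siRNA with sham, 0 of the 8 loci that passed the filter on low values were called at an adjusted p under 0.05, where 0.00149% of all loci tested were called (limma on log2(FPKM + 1), Benjamini-Hochberg adjustment over all loci). The count was also 0 of 8 for INO80 siRNA against uninjected, where 0.00149% of loci were called, and 0 of 8 for sham against uninjected, where 0% were called. At an unadjusted p under 0.05 the counts were 0, 1 (TDGF1) and 1 (SALL4) of 8. The 1 locus called in the whole table, MSTRG.80087, carries no gene name and was picked out after its values were seen. It had 24.8, 33.4 and 41.4 FPKM in the INO80 siRNA columns and was listed at 0 in the 6 sham and uninjected columns.

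By mean value of the annotated locus over the 9 libraries, the order was POU5F1 (67.3 FPKM), GDF3 (59.6), TDGF1 (19.0), ESRRB (13.9), SALL4 (13.0), LIN28A (5.73), KLF4 (4.69) and LIN28B (0.677), with SOX2 last. FPKM is per length of the transcript as listed, and these lengths differ widely, from 546 bases for TDGF1 and 618 for LIN28A to 6146 for a SALL4 form. Whether each listed length is complete is not known, so the order of genes is approximate. The place of GDF3 is that of its locus, most of whose signal in 7 libraries came from transcripts outside the known gene, and not that of GDF3 RNA alone. In the uninjected columns POU5F1 averaged 69.8 ± 19.4 FPKM, the GDF3 locus 68.3 ± 18.9, TDGF1 27.0 ± 4.37, ESRRB 16.1 ± 5.63, LIN28A 7.13 ± 1.23, SALL4 6.99 ± 5.59, KLF4 4.40 ± 2.50 and LIN28B 0.311 ± 0.202 FPKM (SD, n = 3). The means of POU5F1 and the GDF3 locus differed by less than 1 SD of either, and SALL4, with its wide spread, took in the means of LIN28A and KLF4.

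**Figure D1:**
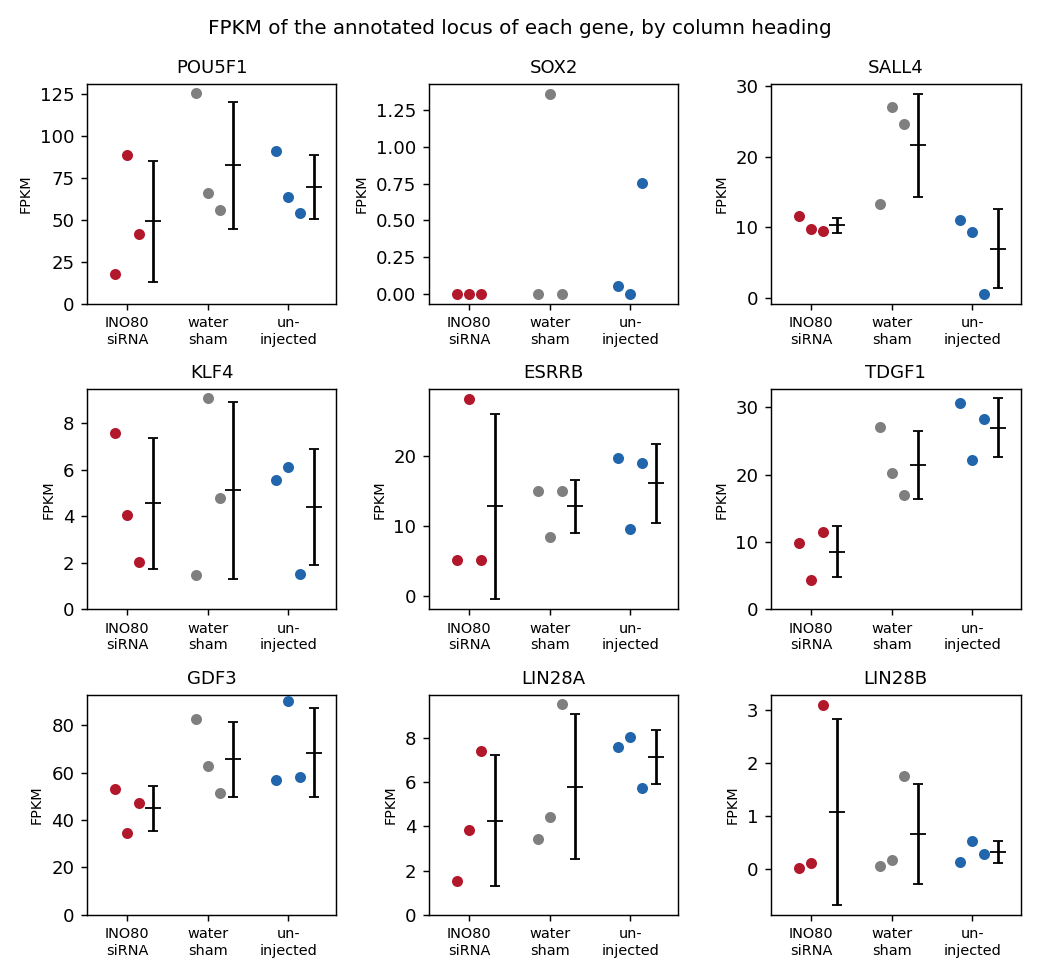
FPKM of the annotated locus of each gene (vertical axis, linear, its own scale in each panel) in the INO80 siRNA, water sham and uninjected columns; points are libraries 1 to 3 from left to right, and bars are mean ± SD (not drawn for SOX2, listed at 0 in 6 libraries). TDGF1 was lower in each INO80 siRNA library than in each library of the other groups, and most other genes overlap between groups.

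Among the transcription factors, POU5F1 was the most abundant and varied widely within groups. Its locus (MSTRG.72045, chromosome 7, 27262624 to 27268634, plus strand) holds 1 known transcript of 5 exons and 1395 bases. It had 17.6, 88.6 and 41.7 FPKM in the INO80 siRNA columns, 126, 66.2 and 55.9 FPKM in the sham columns and 91.4, 63.9 and 53.9 FPKM in the uninjected columns. INO80 siRNA library 1 was the lowest and sham library 1 the highest, and all groups overlapped. The log2 fold change was -0.92 (SE 0.65) for INO80 siRNA against sham, -0.74 (SE 0.65) against uninjected and 0.19 (SE 0.65) for sham against uninjected (limma, adjusted p = 0.539, 0.814 and 0.998). Against sham it was -0.34 without INO80 siRNA library 1 and -1.48 without library 2, and against uninjected -0.16 and -1.29 without the same libraries.

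SOX2 was listed at or near 0 in most libraries. Its single-exon locus (MSTRG.22896, chromosome 13, 128979418 to 128980735, plus strand) was listed at 0 in all 3 INO80 siRNA columns. It had 0, 1.36 and 0 FPKM in the sham columns and 0.0498, 0 and 0.753 FPKM in the uninjected columns. With 6 libraries at 0 and no group mean of 1 FPKM, it was not tested. The depth of the libraries is unknown, so no limit can be put on a value listed at 0. A longer spliced locus named for SOX2 on the same strand (MSTRG.22892) spans this exon and had 0.541 to 7.38 FPKM, but none of its transcripts shares the known SOX2 structure.

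SALL4, a zinc-finger factor, stood highest in the sham columns. Its locus (MSTRG.40567, chromosome 17, 59516330 to 59596953, minus strand) had 11.5, 9.81 and 9.50 FPKM in the INO80 siRNA columns, 13.3, 27.0 and 24.5 FPKM in the sham columns and 11.01, 9.35 and 0.611 FPKM in the uninjected columns. As deposited, every sham library lay above every INO80 siRNA and uninjected library, and uninjected library 3 stood apart at the low end. The log2 fold change was -0.95 (SE 0.79) for INO80 siRNA against sham (limma, adjusted p = 0.577), 0.94 (SE 0.79) against uninjected (adjusted p = 0.814) and 1.89 (SE 0.79) for sham against uninjected (adjusted p = 0.915). Without uninjected library 3 those against uninjected were 0.01 and 0.96.

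The SALL4 transcripts were shared out differently from library to library. The longest form (MSTRG.40567.1, 6 exons, 6146 bases), assembled in these data, held 100%, 97.2% and 51.5% of the locus signal in the INO80 siRNA columns, 27.3%, 94.4% and 97.4% in the sham columns and 99.2%, 29.4% and 30.1% in the uninjected columns. The known transcript ENSSSCT00000008186 had 0, 0.132 and 0.588 FPKM in the INO80 siRNA columns, 9.79, 1.65 and 0.721 FPKM in the sham columns and 0.112, 1.83 and 0.485 FPKM in the uninjected columns. It lay wholly below sham in the INO80 siRNA columns and was not called (-1.59 on the log2 scale, SE 0.718, limma, adjusted p = 0.61 over all transcripts). The share of all transcripts that did so was not counted, and among annotated loci 18.6% did. The form MSTRG.40567.3 had 7.51 FPKM in uninjected library 2 and was listed at 0 in the other 8 libraries.

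KLF4, a Kruppel-like factor, showed no ordering of the groups. Its locus (MSTRG.8530, chromosome 1, 279056681 to 279061593, minus strand) had 7.58, 4.06 and 2.04 FPKM in the INO80 siRNA columns, 1.49, 9.08 and 4.78 FPKM in the sham columns and 5.55, 6.11 and 1.54 FPKM in the uninjected columns. Each group held both low and high libraries, and all groups overlapped. The log2 fold changes were -0.05 (95% interval -1.61 to 1.51) for INO80 siRNA against sham and 0.05 (-1.51 to 1.61) against uninjected (limma, adjusted p = 0.989 and 0.996), intervals that hold sizeable differences in either direction. Of its 4 transcripts, ENSSSCT00000005981 was the most abundant in the INO80 siRNA columns and in sham libraries 1 and 2.

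ESRRB, an orphan nuclear receptor, was highest in 1 INO80 siRNA library. Its locus (MSTRG.75311, chromosome 7, 105686411 to 105746605, plus strand) had 5.21, 28.1 and 5.14 FPKM in the INO80 siRNA columns, 15.0, 8.48 and 15.0 FPKM in the sham columns and 19.8, 9.63 and 19.0 FPKM in the uninjected columns. INO80 siRNA libraries 1 and 3 were the lowest of all and library 2 the highest of all, so the groups overlapped. The log2 fold change was -0.38 (SE 0.734) against sham and -0.66 (SE 0.734) against uninjected (limma, adjusted p = 0.821 and 0.853). All 7 ESRRB transcripts were assembled forms and none was a known transcript as such. MSTRG.75311.2 held 59.8% to 100% of the locus signal, whereas MSTRG.75311.4 reached 37.4 FPKM in sham library 1 and was listed at 0 elsewhere.

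Of the signalling genes, TDGF1 had the lowest levels in the INO80 siRNA columns relative to both other groups. Its locus (MSTRG.19813, chromosome 13, 32774190 to 32777033, plus strand) holds 1 known transcript of 6 exons and 546 bases. It had 9.91, 4.29 and 11.5 FPKM in the INO80 siRNA columns, 27.0, 20.2 and 17.0 FPKM in the sham columns and 30.6, 22.1 and 28.2 FPKM in the uninjected columns. Each INO80 siRNA library lay below every other library. The means were 8.55 ± 3.78, 21.4 ± 5.10 and 27.0 ± 4.37 FPKM in the INO80 siRNA, sham and uninjected columns (SD, n = 3 each). The log2 fold change was -1.30 (95% interval -2.61 to 0.01) against sham and -1.63 (-2.94 to -0.32) against uninjected, and it was not called in either comparison (limma, adjusted p = 0.472 and 0.814). Between sham and uninjected it was -0.33 (-1.64 to 0.98, adjusted p = 0.969). In bulk embryos, fewer epiblast cells and less TDGF1 RNA in each cell cannot be told apart.

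Groups that do not overlap were not rare in these libraries. Of the 8 tested genes, 2 (TDGF1 and SALL4) were lower in each INO80 siRNA library than in each sham library, against 18.6% of all annotated loci tested. Against uninjected, 2 of 8 (TDGF1 and the GDF3 locus) lay wholly below, where 8.60% of annotated loci did. The tested form named for GDF3 within that locus, an assembled one that extends beyond the known transcript, had a fold change of the other sign and overlapped. The known GDF3 transcript was too low to be tested, so the direction of GDF3 RNA itself is not known. Between sham and uninjected, 1 of 8 (SALL4) lay wholly above, where 8.63% of annotated loci did. After each library was scaled to the same annotated signal, an alternative chosen after seeing the data, 0 of 8 lay below sham (9.47% of annotated loci did). TDGF1 alone of the 8 then lay wholly below uninjected in the INO80 siRNA columns (5.26% of annotated loci did).

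Scaled in this way, TDGF1 had 10.5, 4.15 and 15.8 FPKM in the INO80 siRNA columns, 22.8, 21.4 and 13.7 FPKM in the sham columns and 31.4, 25.1 and 26.2 FPKM in the uninjected columns. INO80 siRNA library 3 then stood above sham library 3, and every sham library stood below every uninjected library, as 5.23% of annotated loci did. In a fit of the annotated loci alone on this scale, the log2 fold change was -0.99 against sham and -1.51 against uninjected (limma, adjusted p = 0.509 and 0.998). Scaled SALL4 overlapped between INO80 siRNA (9.51 to 13.1) and sham (11.2 to 28.5). Its sham libraries then also overlapped the uninjected ones (0.568 to 11.3), unlike the values as deposited. Scaled GDF3 overlapped between INO80 siRNA (33.4 to 65.3) and uninjected (54.1 to 102.5).

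**Figure D2:**
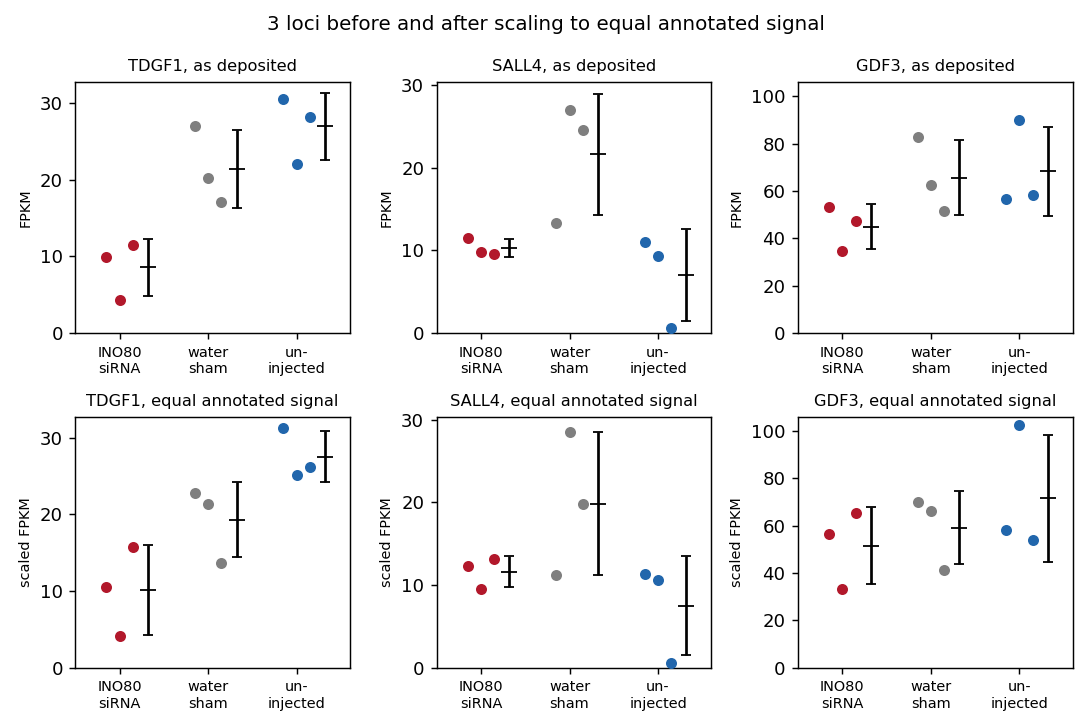
FPKM of TDGF1, SALL4 and GDF3 as deposited (top row) and after scaling each library to the same annotated signal (bottom row), in the INO80 siRNA, water sham and uninjected columns; points are libraries 1 to 3 from left to right, bars are mean ± SD, and axes are linear from 0. As deposited, TDGF1 in the INO80 siRNA libraries (4.29 to 11.5 FPKM) lies below both other groups, and after scaling it lies below the uninjected libraries only.

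TDGF1 and POU5F1 did not vary together within the INO80 siRNA columns. The ratio of TDGF1 to POU5F1 FPKM was 0.561, 0.0484 and 0.275 in the INO80 siRNA columns, 0.215, 0.306 and 0.305 in the sham columns and 0.334, 0.346 and 0.523 in the uninjected columns. INO80 siRNA library 2, with the lowest TDGF1 of all, had the highest POU5F1 of its group, and library 1 had the highest ratio of all 9.

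GDF3, a ligand of the TGF-beta family, had high locus values that came largely from transcripts outside the known gene. Its locus (MSTRG.62794, chromosome 5, 65666043 to 65688237, minus strand) had 53.1, 34.5 and 47.3 FPKM in the INO80 siRNA columns, 82.7, 62.6 and 51.5 FPKM in the sham columns and 56.7, 90.1 and 58.2 FPKM in the uninjected columns. All INO80 siRNA libraries lay below the uninjected ones, and INO80 siRNA library 1 lay above sham library 3. The log2 fold change was -0.53 (SE 0.51) against sham, -0.58 (SE 0.51) against uninjected and -0.05 (SE 0.51) for sham against uninjected (limma, adjusted p = 0.619, 0.814 and 1).

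Forms of GDF3 held 51.9%, 0% and 63.9% of this locus's signal in the INO80 siRNA columns, 38.0%, 0% and 0% in the sham columns and 0%, 0.1% and 12.6% in the uninjected columns. The rest came from 3 transcripts that the table classes as lying outside known genes. The known transcript ENSSSCT00000000725 (2 exons, 1113 bases) had 0 to 1.65 FPKM in the 9 libraries. The other form of GDF3, MSTRG.62794.1, has 6 exons and 4548 bases and extends over the region of the 3 outside transcripts. It had 35.5, 0 and 38.9 FPKM in the INO80 siRNA columns, 40.2, 0 and 0 FPKM in the sham columns and 0, 0.0942 and 9.44 FPKM in the uninjected columns. Its groups overlapped, and unlike the locus it had positive log2 fold changes of 1.71 (SE 1.72) against sham and 2.33 (SE 1.72) against uninjected (limma, adjusted p = 0.689 and 0.80 over all transcripts). In RefSeq's pig gene order, APOBEC1 is the neighbour of GDF3 on one side. On the other side the neighbour is the protein-coding gene LOC100511133, and DPPA3 lies 2 genes away. Which gene, if any, the 3 outside transcripts belong to was not tested. Neither the locus value nor that of MSTRG.62794.1, which spans the same region, can thus be read as the level of GDF3 alone.

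**Figure D3:**
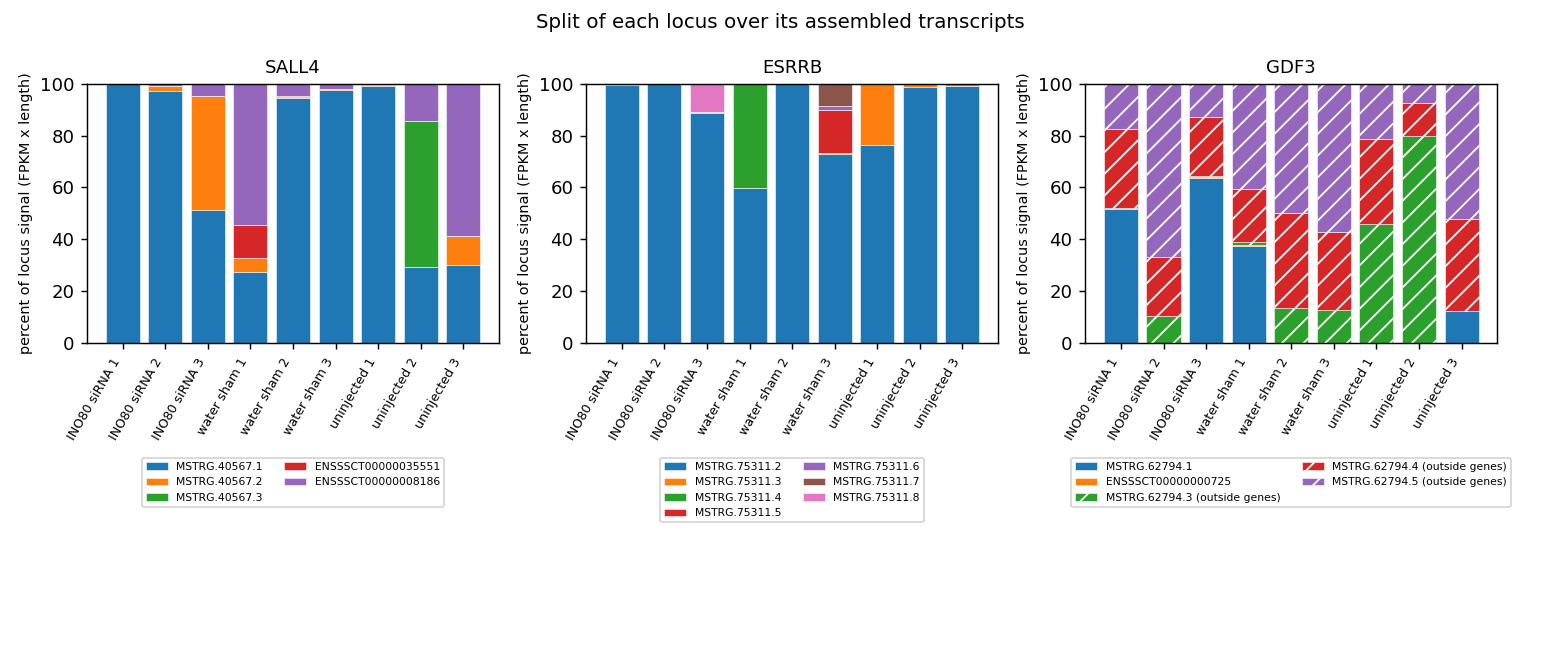
Percent of locus signal (FPKM times length, vertical axis, 0 to 100) held by each assembled transcript of the SALL4, ESRRB and GDF3 loci in each library of the INO80 siRNA, water sham and uninjected columns; colours are transcripts, and hatched bars are transcripts classed as outside known genes. The split differs between libraries of 1 group, and forms of GDF3 hold 0% to 63.9% of its locus.

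The LIN28 paralogs differed in level. LIN28A (MSTRG.68088, chromosome 6, 77358779 to 77371149, minus strand) had 1.53, 3.84 and 7.39 FPKM in the INO80 siRNA columns, 3.42, 4.41 and 9.55 FPKM in the sham columns and 7.60, 8.05 and 5.73 FPKM in the uninjected columns. The uninjected libraries were close together, and the libraries of the other groups spread over a wider range that overlapped them. Its log2 fold change was -0.43 (SE 0.637) against sham and -0.78 (SE 0.637) against uninjected (limma, adjusted p = 0.755 and 0.814).

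LIN28B (MSTRG.2611, chromosome 1, 80444443 to 80617642, plus strand) had 0.0201, 0.0958 and 3.09 FPKM in the INO80 siRNA columns, 0.0459, 0.169 and 1.74 FPKM in the sham columns and 0.123, 0.525 and 0.284 FPKM in the uninjected columns. It passed the filter through 1 library, INO80 siRNA library 3, and its log2 fold change was 0.15 (SE 0.638) against sham and 0.35 (SE 0.638) against uninjected (limma, adjusted p = 0.931 and 0.919). How the authors treated reads shared by similar genes is not stated, so values of these paralogs, and of any gene with processed copies, carry that uncertainty.

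**Figure D4:**
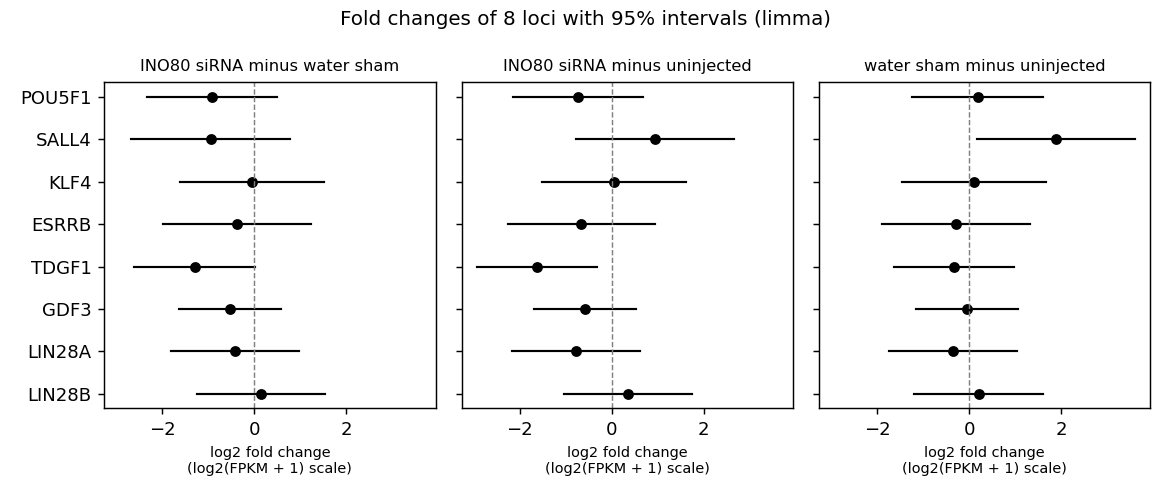
Log2 fold change on the log2(FPKM + 1) scale (points, horizontal axis) with 95% intervals (lines) of 8 loci for INO80 siRNA minus water sham, INO80 siRNA minus uninjected and water sham minus uninjected, from 1 limma fit of 9 libraries. TDGF1 against uninjected (-1.63) and SALL4 between sham and uninjected (1.89) have intervals beside 0, and neither passed after adjustment over all loci.

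As a group, 7 of the 8 tested loci had negative log2 fold changes for INO80 siRNA against sham, with a median of -0.48, beside 72.3% of annotated loci and a median of -0.34. Against uninjected 5 of 8 were negative with a median of -0.62, beside 66.9% of annotated loci and a median of -0.20. For sham against uninjected 4 of 8 were negative with a median of 0.02, beside 37.0% and a median of 0.16. GDF3 enters these counts by its locus (-0.53 against sham and -0.58 against uninjected). The tested assembled form named for it, which extends beyond the known transcript, had 1.71 and 2.33, and neither value stands for GDF3 alone. LIN28B, the only positive locus against sham (0.15), passed the filter through INO80 siRNA library 3 alone, so its place in these counts depends on the filter. The comparisons share libraries. Of the 24 transcripts, 17 were tested and 0 were called in each comparison, where 0.00448%, 0.00538% and 0.000896% of all transcripts were called. The 5 transcripts called for INO80 siRNA against sham belonged to none of these genes (MSTRG.51420.1, MSTRG.68932.11, MSTRG.75207.1, MSTRG.80087.1 and MSTRG.89792.9).

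The other 17 loci that carry these names lie antisense to, within introns of, beside or across the genes. Of 15 that were tested, 2 had negative log2 fold changes for INO80 siRNA against sham, 3 against uninjected and 12 for sham against uninjected, beside 26.4%, 39.3% and 65.3% of all loci tested, and 0 were called. Against sham 3 lay wholly above, where 14.3% of all loci did; against uninjected 2 did, where 8.07% of all loci did; and 1 lay wholly below between sham and uninjected, where 6.42% did. The locus MSTRG.72043, with a transcript antisense to POU5F1, had 69.0, 27.9 and 67.7 FPKM in the INO80 siRNA columns, 27.7, 26.7 and 5.93 FPKM in the sham columns and 38.0, 71.3 and 40.7 FPKM in the uninjected columns. The sham libraries were the lowest, and the INO80 siRNA columns were higher than these by 1.55 on the log2 scale (SE 0.705; limma, adjusted p = 0.471). No strand setting is stated, so sense and antisense reads at such loci cannot be told apart.

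Other genes of the same pathways were read from lists. Of 30 further pluripotency and epiblast genes, 17 were matched and 11 tested, with 0 called in either direction in the 3 comparisons and a median log2 fold change of -0.52 for INO80 siRNA against sham, -0.28 against uninjected and 0.07 for sham against uninjected, beside -0.34, -0.20 and 0.16 over annotated loci. KLF17, a Kruppel-like factor of early embryos, had 0.986, 3.05 and 8.28 FPKM in the INO80 siRNA columns, 11.9, 23.1 and 23.9 FPKM in the sham columns and 8.52, 7.69 and 6.04 FPKM in the uninjected columns. As deposited, the INO80 siRNA libraries lay wholly below the sham ones, as 18.6% of annotated loci did, and overlapped the uninjected ones. The log2 fold change of KLF17 against sham was -2.23 (SE 0.682, limma, adjusted p = 0.459). MYC, a growth-promoting transcription factor, and DNMT3B, a de novo DNA methyltransferase, had log2 fold changes of -1.51 and -0.98 against sham (limma, adjusted p = 0.468 and 0.492). DPPA2, a chromatin-associated factor of pluripotent cells named after its values were seen, had 58.1, 60.6 and 57.6 FPKM in the INO80 siRNA columns, 54.0, 34.4 and 24.0 FPKM in the sham columns and 31.1, 32.0 and 38.9 FPKM in the uninjected columns. As deposited it lay wholly above both, where 1.97% of annotated loci lay above sham and 1.75% above uninjected, and it was not called (log2 fold changes 0.71 and 0.78, SE 0.531 each; limma, adjusted p = 0.551 and 0.814).

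In the NODAL pathway around TDGF1 and GDF3, 10 of 17 listed genes were matched and 5 tested, with 0 called and medians of -0.19 against sham, -0.36 against uninjected and -0.07 for sham against uninjected. FURIN, a protease that cuts NODAL precursors, had 0.324, 4.34 and 1.66 FPKM in the INO80 siRNA columns, 10.6, 4.002 and 4.91 FPKM in the sham columns and 4.57, 9.98 and 10.3 FPKM in the uninjected columns. As deposited it lay below uninjected in each INO80 siRNA library, as 8.60% of annotated loci did, and overlapped sham (log2 fold change -1.40 against sham, limma, adjusted p = 0.474). FOXH1 and SMAD4, transcription factors that act downstream of NODAL, had log2 fold changes of 0.37 and -0.29 against sham.

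Around the LIN28 proteins, 7 of 16 listed genes of let-7 processing were matched and 6 tested, with 0 called and medians of -0.34 against sham, -0.15 against uninjected and 0.02 for sham against uninjected. AGO2, which carries mature microRNAs, had 0.342, 0.585 and 1.03 FPKM in the INO80 siRNA columns, 1.91, 4.22 and 4.26 FPKM in the sham columns and 1.05, 2.31 and 1.41 FPKM in the uninjected columns. As deposited it lay below both other groups in each INO80 siRNA library. Of annotated loci, 18.6% lay wholly below sham and 8.60% below uninjected. The gap to uninjected was narrow (1.03 against 1.05 FPKM), and AGO2 was not called (log2 fold change -1.40 against sham, limma, adjusted p = 0.46). DGCR8 and DICER1, which process microRNA precursors, had log2 fold changes of -0.45 and -0.36 against sham.

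Over the 9 libraries, the annotated genes whose log2(FPKM + 1) followed POU5F1 most closely were MARCH2 (Pearson r = 0.976), BIN1 (0.973), NDUFA10 (0.972), TUBB6 (0.958) and IDH3B (0.949), out of 5876 compared. Of the other pluripotency genes, ESRRB had r = 0.707 with POU5F1, LIN28A 0.359, TDGF1 0.308, GDF3 0.215, SALL4 0.09, SOX2 0.03, LIN28B -0.21 and KLF4 -0.31. These values describe 9 points that share the library scaling, and carry no test.

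Summed levels of cell type markers were set beside these values without a test, and their ranges overlapped between groups for each list except epiblast in INO80 siRNA against sham. Lower values there were not particular to epiblast markers. Median log2 fold changes against sham were -0.48 for epiblast, -0.90 for trophectoderm, -0.58 for primitive endoderm, -0.30 for maternal oocyte and 0.39 for blood and immune markers. Of 12 tested trophectoderm markers 10 were negative and 2 positive. Of these, 3 lay wholly below sham and 1 wholly above, beside 18.6% and 1.97% of annotated loci. The summed FPKM of 13 of 15 listed trophectoderm markers was 1984 to 5569 in the INO80 siRNA columns, 4022 to 9166 in the sham columns and 3175 to 9092 in the uninjected columns. For 10 of 12 epiblast markers, which include the 9 genes, it was 107 to 173, 180 to 269 and 168 to 223 in the same groups. Without the GDF3 locus it was 53.4 to 139, 129 to 186 and 110 to 166, and then overlapped in each comparison. For 11 of 12 primitive endoderm markers it was 14.1 to 90.8, 14.5 to 35.1 and 22.9 to 34.4. Each of 7 matched cumulus and granulosa markers was below 1 FPKM in all libraries, and 12 of 13 maternal oocyte markers summed to 10.7 to 159, 20.7 to 105 and 9.16 to 27.0. The 7 matched of 9 blood and immune markers summed to 330 to 662, 333 to 402 and 360 to 472, sums made up mostly of the loci named CD79A and AIF1. Among the other matched markers of this list, HBB reached 23.6 FPKM in INO80 siRNA library 2 and LYZ 7.97 FPKM in sham library 2. CD68 and SPI1 reached 8.32 and 2.21 FPKM in INO80 siRNA library 3, and CD3E, a T cell marker, was at most 0.205 FPKM. None of the matched markers was at 0 in all libraries. The part of these markers in the values of the pluripotency genes was not tested.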

How the data were processed

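The authors deposited FPKM values per assembled locus and per transcript, with transcript length in bases, exon number and class. HISAT2, StringTie, fastp, edgeR, HOMER and ChIPseeker are named in the submitters' processing notes, without versions, roles or a strand setting. The build named there is the human GRCh38.p10, although transcript IDs are pig Ensembl IDs, so the pig build of the coordinates is unknown here. No counts were used, so depth is unknown.

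Values were taken as log2(FPKM + 1). Features whose mean reached 1 FPKM in 1 or more groups were tested with limma 3.58.1 (R 4.3.3; trend, robust) in 1 fit of 9 libraries, two-sided, with Benjamini-Hochberg adjustment over all features and a threshold of 0.05. A fold change on this scale understates the change of low genes. The fit was tested on simulated data with a fixed spread and large changes. That does not show how well changes of the size seen here would be found. Columns headed uninjected were matched to samples by title; sham and INO80 siRNA columns were assigned by heading to a group only. The 9 coverage columns were not used.

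A gene with several loci was represented by its annotated locus with an Ensembl transcript, then the longest transcript. Named besides the genes themselves were INO80, the 3 genes of each list with the smallest p for INO80 siRNA against sham, and the 5 most like POU5F1. The genes and lists were chosen with earlier results of these data known. Alternatives were other scalings, filters and pseudocounts, annotated features only, the replicate block, 2 groups only and leaving out each library.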

Additional observations from a re-analysis of the deposited data

How the results depend on the processing

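None of the 8 tested loci and 17 tested transcripts was called under any of the 17 alternatives to each comparison. Of 378 fold changes of the 8 loci under alternatives, 348 kept their sign and 30 did not, all of them of loci not called. With quantile normalization and with scaling to the median library, the sign changed for LIN28B against sham (-0.44 and -0.35) and for KLF4 of INO80 siRNA against uninjected (-0.13 and -0.11). The same scalings changed, for sham against uninjected, TDGF1 (0.14 and 0.21), LIN28A (0.13 and 0.16), ESRRB (0.20 and 0.24) and GDF3 (0.29 and 0.50). Against sham they gave larger values of the same sign for TDGF1 (-2.00 and -2.09), POU5F1 (-1.40 and -1.76), SALL4 (-1.63 and -1.74) and the GDF3 locus (-1.03 and -1.37). They took the median of all loci against sham to 0.03 and 0.10 and that of annotated loci to -0.99 in both. Scaling to equal annotated signal, chosen after seeing the data, changed KLF4 against sham (0.18) and POU5F1 (-0.00895) and KLF4 (-0.0498) for sham against uninjected. The causes were not tested.

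Leaving out 1 library at a time gave ranges that crossed 0 for INO80 siRNA against sham in LIN28A (-0.85 to 0.0125), LIN28B (-0.11 to 0.59), KLF4 (-0.59 to 0.42) and ESRRB (-1.12 to 0.000228), against uninjected in KLF4 (-0.42 to 0.43), and for sham against uninjected in POU5F1 (-0.16 to 0.42), LIN28B (-0.23 to 0.46), KLF4 (-0.38 to 0.64) and GDF3 (-0.23 to 0.16). TDGF1 ranged from -1.54 to -0.92 against sham and from -1.87 to -1.25 against uninjected, and its lowest adjusted p under any alternative was 0.156 (annotated loci only, against sham; limma).

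Over the whole tables, the calls were few and unstable. For INO80 siRNA against sham, the 1 locus called became 0 with a minimum of 5 FPKM, a pseudocount of 0.1, annotated loci only, as deposited or scaled, 2 groups only, or an adjusted p of 0.01, and 0 to 7 with 1 library left out (7 without INO80 siRNA library 1). The 5 transcripts called became 0 with no filter, 1 with the minimum of 5 FPKM, 3 with annotated transcripts only, 1 when these were scaled, 0 with 2 groups only, 0 at 0.01 and 0 to 28 with 1 library left out (28 without INO80 siRNA library 1, 0 without sham library 3). Against uninjected, the 1 locus became 0 under the same settings, and 0 to 1 with 1 library left out. The 6 transcripts became 0 with no filter, 3 with the minimum of 5 FPKM, 16 with the pseudocount of 0.1, 14 without the trend, 2 with annotated transcripts only and when scaled, 0 at 0.01, and 0 to 30 with 1 library left out. For sham against uninjected, the 0 loci became 0 to 1, and the 1 transcript became 0 with median scaling, no filter, 2 groups only or 0.01, 6 with annotated transcripts only, 4 when scaled and 0 to 3 with 1 library left out.

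Deviations of same-numbered libraries from their group means correlated weakly (-0.07 to 0.13 over all loci tested), and those of differently numbered libraries did too (-0.14 to 0.08). The labels do not say what the numbers mark, and such weak values cannot show whether they pair the samples. With the number as a replicate block, 0 loci and 0 transcripts were called for INO80 siRNA against sham, 0 loci and 2 transcripts against uninjected, and 0 loci and 0 transcripts for sham against uninjected. With 3 libraries a group and unknown depth, low levels such as those of SOX2 and LIN28B could not be resolved.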
